A study of Mus musculus with 29 samples.

Results

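XEN cells, the stem cell line of extraembryonic endoderm, were compared with naive embryonic stem cells (ESC) across all genes measured on single-colour Agilent expression arrays. The comparison took the arrays titled XEN and ESC, which are 6 of the 29 arrays of the study, 3 in each group. The XEN cells were of the line labelled Xen, were grown in standard XEN medium and carry the label male. The ESC were undifferentiated cells of the double reporter line HRHnG in 2i/LIF, also labelled male, where 2i is a pair of inhibitors of MEK and GSK3 and LIF is leukaemia inhibitory factor. The reporters are not described further in the labels. No other allele or treatment is labelled in either group, so cell line, culture medium and lineage state differ together between them and cannot be told apart.

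The study set XEN beside endoderm grown from the same HRHnG line: Diff, which are ESC differentiated with Activin, CHIRON and LIF towards primitive endoderm, and nEnd, the cultures passaged from Diff, sampled at mid passage (Mid) and late passage (Late). Mid, Late and Diff have 3 arrays each, and nEnd below is the mean of the Mid and Late means, from 6 arrays. A group of 3 other naive arrays (2iL: E14, E14-NanogGFP and HVMC cells) came from another array set with other slides, and its levels are given beside the others without a test. Each nEnd replicate is, per the design text, a separate set of differentiations. What separates the XEN replicates and the ESC replicates is not stated, so the spread between them may be technical. The p-values rest on a spread pooled over all 29 arrays in 9 groups, not on that of the XEN and ESC arrays alone.

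Primitive endoderm and epiblast arise together in the inner cell mass of the blastocyst: FGF4 from epiblast precursors signals through FGF receptors and ERK in primitive endoderm precursors, where GATA6 prevails over NANOG. Primitive endoderm then forms visceral endoderm, an absorptive and secretory epithelium with an apical endocytic machinery, and parietal endoderm, migratory cells that lay down the thick basement membrane known as Reichert's membrane. Naive ESC hold the epiblast side of that choice through OCT4 (Pou5f1), SOX2, NANOG, ESRRB and KLF factors, while XEN cells hold the endoderm side through GATA6, GATA4 and SOX17.

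A pair of promoters serves as an example of sequence that holds motifs of such factors. The first is of Nanog, a gene of the naive state, and the second is the more distal of the promoter windows listed for Hnf4a, a nuclear receptor of visceral endoderm. Both are RefSeq sequences of build GRCm38.p6, the 250 bases before an annotated start, on the + strand. Capitals mark an octamer motif of POU factors in Nanog, searched as TTTGCAT, and a GATA factor motif in Hnf4a, searched as AGATAA, each on both strands. For each gene 2 windows are listed, and the window shown was taken from those that hold the motif, so its presence follows from that choice.
Nanog, chr6:122707239-122707488: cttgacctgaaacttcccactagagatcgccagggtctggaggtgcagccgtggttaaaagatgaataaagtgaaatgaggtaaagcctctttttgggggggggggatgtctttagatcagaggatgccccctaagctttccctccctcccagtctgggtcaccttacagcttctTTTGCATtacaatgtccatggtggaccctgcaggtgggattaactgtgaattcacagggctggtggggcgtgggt
Hnf4a, chr2:163506607-163506856: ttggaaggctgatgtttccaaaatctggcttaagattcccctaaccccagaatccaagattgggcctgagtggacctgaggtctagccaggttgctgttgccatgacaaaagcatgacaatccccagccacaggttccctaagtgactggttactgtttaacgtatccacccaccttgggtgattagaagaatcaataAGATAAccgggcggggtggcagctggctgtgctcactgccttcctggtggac
The octamer ends 68 bases before the start in Nanog, and the GATA motif 46 bases before it in Hnf4a. AGATAA was present in 3281 of the 32851 promoter windows of the same length (9.99%). Among genes with a window, 29 of 247 that were higher in XEN by at least 5 on the log2 scale held it, 33 of 336 that were lower by as much, and 1096 of 12938 tested genes. TTTGCAT was present in 1355 windows (4.12%), and in 8 of the genes higher in XEN by at least 5, 20 of those lower by as much and 511 of the tested genes with a window. These matches describe letters in a window and were not tested.

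The share of probes well above background was 52.5% to 64.1% on the XEN arrays, against 58.0% to 70.6% on the ESC arrays. Replicates correlated at 0.975 to 0.977 within XEN and at 0.978 to 0.986 within ESC, over the genes tested, and at 0.809 to 0.822 between the groups. The headers place XEN array 2 on the same slide as ESC arrays 1 and 2, and the other XEN and ESC arrays on slides that hold no array of the opposite group. XEN arrays 1 and 2 and ESC arrays 1 and 2 share a scan day, and the third array of each group has another. The XEN line is labelled male. Of 13 Y-linked genes tested, 3 were called lower in XEN than in ESC and 2 higher. Eif2s3y, a Y-linked translation factor gene that most male cells transcribe, was not well above background on any XEN array, against 1.20, 0.14 and -1.25 on the ESC arrays, and averaged 3.26 in nEnd. Ddx3y, a Y-linked helicase gene, was not well above background on any XEN array either, against 0.80, -1.13 and -4.12 on the ESC arrays. Both were called lower, by the test described below. Of 6 genes tested on a list of Y-linked genes and Xist, 5 were lower in XEN than in nEnd, with a median of -3.35. The 2 called higher were Sly (3.51 ± 0.76), a multi-copy gene with relatives on the X chromosome, and Gm20736 (4.42 ± 0.39), each well above background on all XEN arrays. Uty, Usp9y and Zfy1 were not well above background in XEN, and on at most 1 ESC array, and the same held for Xist, the RNA that coats an inactive X chromosome.

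Most of the measured transcriptome differed. A level is given throughout as log2 of the processed signal relative to the array's 75th percentile, a difference is the XEN minus ESC level fitted with limma, with its standard error, and a gene is called where the Benjamini-Hochberg adjusted p over all 16332 genes tested is below 0.05. Of these genes 8514 were called (52.1%), 5012 of them higher in XEN (30.7%) and 3502 lower (21.4%). The counts of each gene list below are to be read against these shares. The median difference of all genes was 0.04. A difference of at least 2-fold was reached by 3380 of the genes called higher and 2781 of those called lower, and one of at least 5 on the log2 scale by 332 and 462. The split between higher and lower depended on the scaling: with each array centred on its median instead, 78.4% of called genes were higher and the median of all genes was 0.68, with quantile normalisation 53.8% were higher, and with the scaling used here 58.9%. Groups did not overlap in 9433 of the 16332 genes. Of the 8514 called genes 8436 had the same sign on both scan days. The call itself uses the arrays of both days and so favours the same sign. Within the first scan day, with 2 arrays a group, 7534 genes were called, and with slide as a random block 8426. With the XEN and ESC arrays fitted alone, 7398 were called.

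Among the genes highest in XEN were structural, endocytic and regulatory genes of extraembryonic endoderm. Col4a1, a chain of basement membrane collagen IV, had levels of 7.96, 7.13 and 7.78 on the XEN arrays, against -5.85, -5.24 and -4.47 on the ESC arrays, where 1 array was well above background, a difference of 12.81 ± 0.80. Sox17, a transcription factor that XEN cells depend on, followed at 5.85, 5.92 and 6.14 in XEN, and was not well above background on any ESC array. For such genes the fold is a lower bound, set against the lowest signal well above background on the dim arrays, and Sox17 was at least 1616-fold higher in XEN (limma adjusted p = 5.0e-16). The other leading genes were picked for the size of their difference, so their groups lie apart by that choice. They were Adora1, an adenosine receptor (at least 917-fold), Pth1r, the receptor for parathyroid hormone-related protein (11.96 ± 0.52), and Dab2, a clathrin adaptor of endocytic receptors (at least 559.5-fold). S100g, a vitamin D-dependent calcium-binding protein (at least 568-fold), and Vcam1, a cell adhesion molecule (at least 405-fold), followed. Cubn, an endocytic receptor (at least 726-fold), Foxa2 (10.71 ± 0.79) and Thbd, thrombomodulin (at least 486-fold), came next.

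The genes lowest in XEN were led by naive pluripotency genes. Fgf4, the ligand that epiblast cells secrete, was not well above background on any XEN array, against 6.02, 6.28 and 5.98 in ESC, at least 1729.6-fold lower. Tcl1, a cofactor of AKT, was at least 1379-fold lower on the same basis. Dppa5a, an RNA-binding protein of pluripotent cells, was still measured in XEN, at -3.42, -3.35 and -2.69, against 8.80, 8.52 and 7.99 in ESC (-11.59 ± 0.40, limma adjusted p = 5.0e-16). These genes were picked as the largest differences, so the distance between their XEN and ESC arrays follows from that choice. Alpl, tissue-nonspecific alkaline phosphatase and a classical stain of ESC colonies, was at least 618-fold lower, and Spp1, osteopontin, at least 489.8-fold lower. Rsrp1 was at least 1096-fold lower, Rpl10l, a ribosomal protein gene known from male germ cells, at least 1050.0-fold lower, and Oas1a, an interferon-induced oligoadenylate synthetase, at least 614-fold lower. Meg3, a maternally expressed imprinted RNA, differed by -10.88 ± 0.63, and Hexa, the alpha subunit of lysosomal beta-hexosaminidase, was at least 724-fold lower. For Rsrp1, Hexa and Oas1a the nEnd means were 4.70, 3.68 and 1.21, so the signal was present in endoderm of the HRHnG line.

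**Figure D1:**
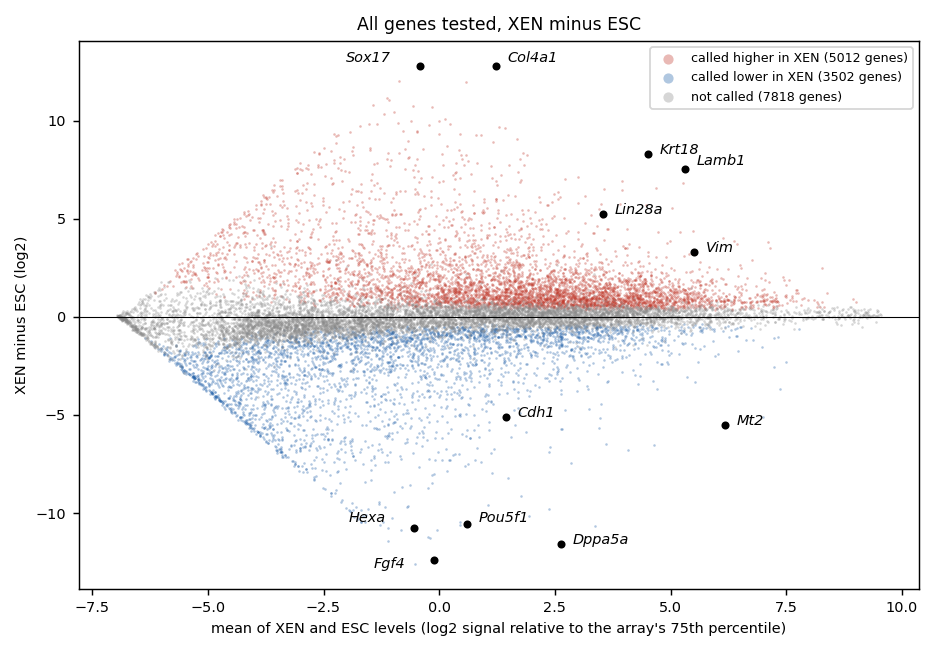
XEN minus ESC difference (log2, vertical) against the mean level of both groups (log2 relative to the array's 75th percentile, horizontal) for the 16332 genes tested, with called genes coloured by direction and 12 genes named. Col4a1 and Sox17 stand at the top and Fgf4 and Dppa5a at the bottom.

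Endoderm transcription factors were the most uniformly higher group of regulators. Of 21 tested, 16 were called higher and 1 lower, with a median difference of 3.39, against 0.04 for all genes. Gata6, the factor that specifies primitive endoderm, had levels of 5.18, 4.39 and 5.40 in XEN, against -5.49, -5.17 and -4.34 in ESC (9.99 ± 0.61). Gata4, its close relative, had 6.00, 5.31 and 6.02 in XEN, against -2.30, -2.28 and -2.30 in ESC, where it was well above background on all 3 arrays (8.07 ± 0.41). Neither gene overlapped between the groups. Foxa2, a pioneer factor of endoderm, had 5.56, 4.79 and 5.26 in XEN, against -6.75, -4.96 and -4.80 in ESC. On ESC arrays 1 and 2, Gata6 and Foxa2 lay below the lowest signal well above background, so their differences rest in part on signals near background. Sox7, a relative of Sox17, was at least 405-fold higher, with XEN levels of 3.96, 3.14 and 4.82. The forkhead gene Foxq1 was higher by 9.84 ± 0.55, the coregulator Cited1 by 6.84 ± 0.68 and Hnf4a by 6.09 ± 0.59. Smaller rises were called for genes including Foxa3, Foxa1, Gata3, Nr2f2, Klf6, Tcf7l2 and Hhex, with Tcf7l2 (0.80) and Hhex (1.17) not called with slide as a fixed block. The Hhex call was lost without XEN array 1 (0.99), XEN array 2 (1.04) or ESC array 3. Gsc, a homeobox gene of the embryonic organiser, was the member called lower, at least 23.3-fold, and Gata5, Eomes and Mixl1, which mark other endoderm or mesendoderm states, did not pass the test.

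**Figure D2:**
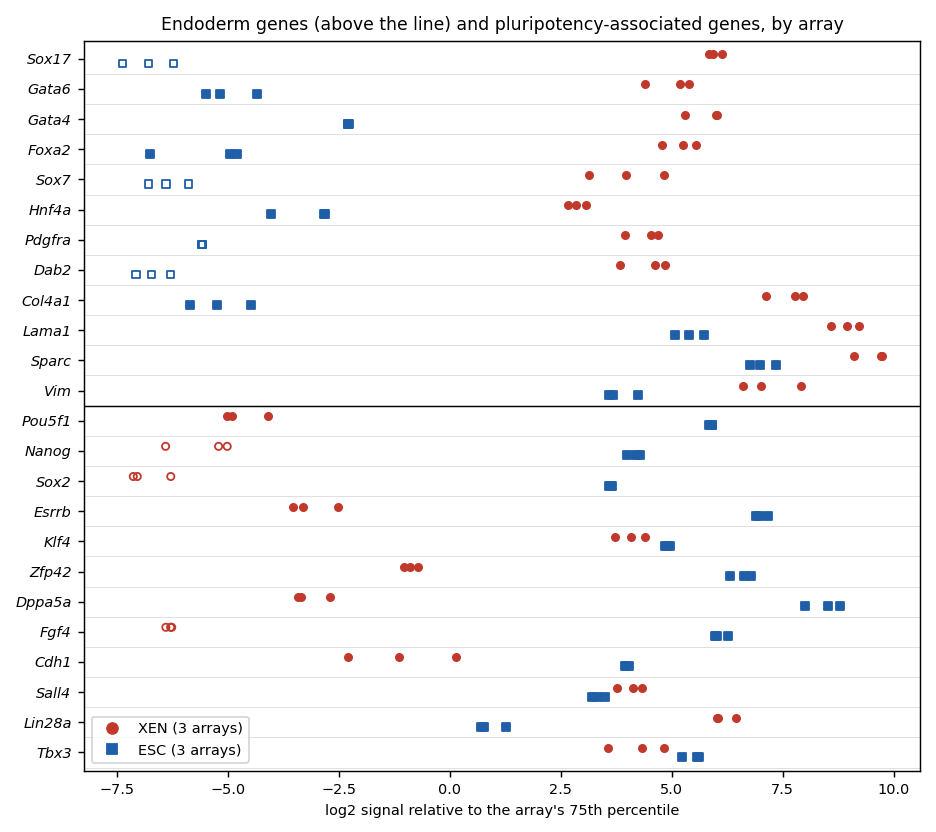
Level on each array (log2 signal relative to the array's 75th percentile) of 12 endoderm genes, above the line, and 12 pluripotency-associated genes, below it, with XEN as circles over ESC as squares and open symbols for genes not well above background on any array of the group. The groups are separated in all 24 genes, by the least in Sall4, Klf4 and Tbx3, and XEN is higher in Sall4 and Lin28a below the line.

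The naive factors were lower in XEN almost without exception: of 22 tested, 19 were called lower and none higher, with a median of -6.99. Nanog, the homeobox factor of the naive state whose promoter is shown above, was not well above background on any XEN array, against 4.29, 4.19 and 4.00 in ESC, at least 452-fold lower. Esrrb, an orphan nuclear receptor, was measured in both groups, at -3.54, -2.52 and -3.31 in XEN, against 6.96, 7.18 and 6.90 in ESC (-10.14 ± 0.57). Nr0b1, a corepressor of nuclear receptors, was at least 275-fold lower and Prdm14, a repressor of FGF receptor genes, at least 209.7-fold lower. Klf2 (-8.22 ± 0.68), Nr5a2 (-7.48 ± 0.54) and Zfp42, also called Rex1 (-7.47 ± 0.51), were lower by more than 7 on the log2 scale. Not every factor of the naive network fell. Klf4 was called lower by a small amount, with 4.08, 3.72 and 4.40 in XEN, against 4.89, 4.97 and 4.86 in ESC (-0.84 ± 0.28, limma adjusted p = 0.016). That call was lost without XEN array 2 (-0.67) and under median centring (-0.20). Klf5, Zfp281 and Tbx3 did not pass the test. The XEN and ESC arrays overlapped for Klf5 and Zfp281 and did not for Tbx3.

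The wider pluripotency list was split: 12 of 17 tested genes were called lower and 4 higher, with a median of -1.96. Pou5f1, which encodes OCT4, had -4.91, -4.10 and -5.03 in XEN, against 5.90, 5.84 and 5.90 in ESC (-10.56 ± 0.43, limma adjusted p = 1.0e-14), and 1 XEN array was well above background. Sox2, its partner, was not well above background in XEN, against 3.65, 3.58 and 3.63 in ESC, at least 312-fold lower. Dppa4 (-5.89 ± 0.33), Dppa2 (-5.05 ± 0.76) and Utf1 (-3.83 ± 0.51) were lower as well. The 4 genes called higher in XEN were Lin28a and Lin28b, which block maturation of let-7 microRNAs, Mycn, a MYC family factor, and Sall4, a zinc-finger factor used by both lineages. Lin28a had 6.46, 6.03 and 6.05 in XEN, against 1.26, 0.71 and 0.77 in ESC (5.27 ± 0.29), without overlap. Its level on the 2iL arrays, of other naive lines, averaged 3.02, between those of XEN and ESC. Lin28b was higher by 3.45 ± 0.73, Mycn by 2.23 ± 0.22 and Sall4 by 0.73 ± 0.29. The Sall4 call was lost without XEN array 1 (0.60), XEN array 3 (0.71), ESC array 2 (0.66) or ESC array 3 (0.72) and under quantile normalisation (0.33). Trim71 did not pass the test.

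Basement membrane genes were led by collagen IV and laminin chains. Of 22 tested, 10 were called higher and 2 lower, with a median of 0.58. The members called higher included chains of collagen IV and of the main laminin of the embryo. Beside Col4a1, Col4a2 had 5.86, 5.36 and 5.46 in XEN, against -3.41, -3.53 and -4.28 in ESC (9.30 ± 0.54). Lamb1, the laminin beta chain, had 9.06, 8.80 and 9.35 in XEN, against 1.14, 1.47 and 1.99 in ESC (7.54 ± 0.43). Lamc1, the gamma chain, was higher by 3.80 ± 0.29, and Lama1, the alpha chain, by 3.53 ± 0.36, at 8.95, 8.60 and 9.23 in XEN, against 5.38, 5.72 and 5.07 in ESC. Sparc, a collagen-binding glycoprotein abundant in parietal endoderm, was high in both groups and averaged 9.52 in XEN, against 7.03 in ESC (2.49 ± 0.33). None of these overlapped between the groups. Smoc1, Hspg2 (perlecan), Nid2 and Lamb2 were also called higher, Lamb2 not under quantile normalisation (0.64). Col18a1, the source of endostatin, had the lowest difference of the list (-4.17 ± 0.66).

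Of 24 tested genes that modify and secrete collagen, 18 were called higher and none lower, with a median of 1.77. Pxdn, the peroxidase that cross-links collagen IV, had 6.18, 5.80 and 6.41 in XEN, against -3.41, -3.69 and -3.55 in ESC (9.68 ± 0.46). Serpinh1, the collagen chaperone HSP47, had 7.59, 6.72 and 7.89 in XEN, against -0.15, 0.73 and 0.90 in ESC (6.90 ± 0.43). Loxl2, a lysyl oxidase (7.11 ± 0.75), P3h2, a prolyl 3-hydroxylase (6.56 ± 0.76), P4ha2, a subunit of prolyl 4-hydroxylase (6.47 ± 0.44), and Fkbp10, a collagen-folding isomerase (5.80 ± 0.32), completed the leading 6. Plod2, Plod3 and Plod1, which hydroxylate lysine, and Mia3 and Sec23a, which act in export of collagen from the endoplasmic reticulum, were among the other 12. The 6 members that did not pass the test were P4ha3, Creb3l1, Crtap and the lysyl oxidases Loxl1, Loxl3 and Loxl4.

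Parietal endoderm genes were higher in XEN in 15 of 20 tested and lower in 1, with the highest median of all lists, 3.91. Pth1r had 6.83, 5.85 and 6.99 in XEN, against -5.30, -6.24 and -4.67 in ESC, where arrays 1 and 2 lay below the lowest signal well above background. Thbd had 4.83, 3.35 and 4.53 in XEN, and Pdgfra, the PDGF receptor that marks primitive endoderm from the blastocyst on, had 4.68, 3.94 and 4.53. Neither was well above background on any ESC array, and Pdgfra was at least 538-fold higher. Stra6, a retinol transporter, was at least 406-fold higher. Cyp26a1, which degrades retinoic acid (9.33 ± 0.85), and Plat, tissue plasminogen activator (8.57 ± 0.58), followed. Fst, the Activin antagonist follistatin, had 7.97, 7.27 and 8.18 in XEN, against 2.80, 2.72 and 1.27 in ESC, Snai1, a repressor of epithelial genes, was higher by 4.52 ± 0.51, and Vim, the intermediate filament vimentin, had 7.91, 6.60 and 7.00 in XEN, against 4.25, 3.68 and 3.59 in ESC (3.33 ± 0.59). F2rl1, a protease-activated receptor, was the member called lower, at least 2.69-fold.

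Visceral endoderm genes were divided, with 13 of 30 called higher and 8 lower and a median of 0.21. The endocytic receptors and their adaptor were high in XEN. Cubn (cubilin) had 5.28, 4.39 and 4.78 and Dab2 had 4.63, 3.84 and 4.85, and Lrp2 (megalin) had 4.11, 3.52 and 4.56 in XEN, against -3.56, -3.52 and -2.94 in ESC (7.40 ± 0.48). Amn (amnionless), which carries cubilin to the membrane, was higher by less, 3.16 ± 0.40. Among secreted proteins Ttr, transthyretin, was at least 228-fold higher, Rbp4, which carries retinol, by 7.25 ± 0.50, and Afp, alpha-fetoprotein, at least 20.4-fold, at XEN levels of -0.08, -0.29 and -0.64. Slc39a8, a zinc transporter (8.59 ± 0.54), and Ihh, a hedgehog ligand of visceral endoderm (8.50 ± 0.57), were among the leading 6 as well. Other genes of differentiated visceral endoderm were not among those called higher. Apoa1 was not well above background on any array of either group, and Apob, Fgb and Hpx did not pass the test. Trf, transferrin (-4.05 ± 0.66), Vil1, the microvillus protein villin (-3.65 ± 0.40), Fgg (at least 1.62-fold), Apom (-2.07 ± 0.34) and Otx2, a homeobox factor of anterior visceral endoderm and epiblast (-4.24 ± 0.81), were called lower. The Fgg call was lost with slide as a fixed block, with normexp background correction and quantile normalisation, and in the authors' deposited log2 values. Lefty1, an inhibitor of Nodal, was called lower too, a call lost with slide or scan day as a block, with normexp background correction and quantile normalisation (-0.88) and without ESC array 1 (-2.88) or XEN array 3 (-2.96).

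Lysosomal and endocytic genes moved both ways, with 10 of 23 called higher and 5 lower and a median of 0.46. The proteases Ctsh, Lgmn and Ctsz were the most raised, Ctsh at 4.34, 4.09 and 4.85 in XEN, against -3.61, -2.57 and -3.85 in ESC (7.77 ± 0.54), and Lgmn, legumain, by 3.72 ± 0.24. Ctsl, cathepsin L, which is counted among the parietal genes, was higher by 2.22 ± 0.20. Hexa was not well above background on any XEN array, against 4.74, 4.70 and 5.06 in ESC. Ctsc (-2.44 ± 0.56), Fcgrt, a receptor for immunoglobulin G (-2.29 ± 0.74, and -1.71 without XEN array 1, where the call was lost), and Scarb1 by less were among the other members called lower. Under median centring Scarb1 was not called. The values of Hexa and Rsrp1 rest on 1 probe each.

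Epithelial genes moved both ways. Of 27 tested, 14 were called higher and 8 lower, with a median of 0.68. The simple-epithelium keratins were the most raised. Krt18 had 8.41, 8.79 and 8.79 in XEN, against 0.35, 0.49 and 0.25 in ESC (8.30 ± 0.49), Krt19 was higher by 8.27 ± 0.81 and Krt8 by 5.74 ± 0.75. Cldn6, a claudin of early epithelia (6.25 ± 0.71), Ocln, occludin (3.74 ± 0.55), and Cgn, cingulin, followed, and Epcam was higher by 2.35 ± 0.30. Cdh1, E-cadherin, had -2.29, 0.13 and -1.15 in XEN, against 4.05, 3.95 and 3.96 in ESC (-5.09 ± 0.57, limma adjusted p = 6.9e-08), without overlap. Cldn3 was at least 27.5-fold lower, and St14, a membrane serine protease (-4.98 ± 0.45), Cldn4 (-4.42 ± 0.84), Spint1, the inhibitor of that protease (-2.84 ± 0.36), Rab25 (-2.47 ± 0.58), Tjp3 (-2.36 ± 0.44) and Cldn7 (-2.01 ± 0.60) were also lower. The Cldn7 call was lost under median centring (-1.37) and the Cldn7 and Rab25 calls with normexp background correction and quantile normalisation.

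Mesenchymal transition genes did not move as a block: 9 of 23 were called higher and 5 lower, with a median of 0.66. Timp2, an inhibitor of metalloproteinases, had 6.49, 5.58 and 5.90 in XEN, against -2.35, -2.41 and -2.36 in ESC (8.36 ± 0.59). Zeb2, a repressor of E-cadherin, was at least 19.3-fold higher, with XEN levels of -0.49, -0.24 and -0.52, while its relative Zeb1 had 1.68, 1.13 and 1.78 in XEN, against 1.23, 1.31 and 1.49 in ESC, and did not pass the test. Itga5 (4.19 ± 0.40), Mmp14 (3.95 ± 0.38), Tgfb2 (3.66 ± 0.68) and Tgfb1 (3.00 ± 0.33) were higher. Fn1, fibronectin, was lower in XEN, at 3.26, 3.85 and 4.46, against 7.07, 7.29 and 7.22 in ESC (-3.33 ± 0.44), as were Tgfbi (-5.20 ± 0.75), Itgb3 (at least 5.65-fold), Snai2 (at least 3.35-fold) and Mmp2 (-2.50 ± 0.66). The calls of Itgb3, Snai2 and Mmp2 were lost with normexp background correction and quantile normalisation. Cdh2, N-cadherin, and Twist1 and Twist2 did not pass the test.

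Genes of actin contractility and targets of the coactivator YAP were called higher in 15 of 23 and lower in none, with a median of 2.35. Cnn1, calponin, was at least 142-fold higher, with XEN levels of 2.31, 3.08 and 2.00. Ankrd1, a YAP target (8.50 ± 0.82), Myl9, a myosin light chain (8.04 ± 0.77), and Lats2, a kinase that restrains YAP (6.75 ± 0.43), followed. The matricellular YAP target Ccn2 had 8.26, 7.87 and 7.80 in XEN, against 0.41, 1.06 and 2.71 in ESC, and Ccn1 had 5.11, 5.63 and 4.84 in XEN, against -0.75, -0.52 and -0.22 in ESC. The groups were apart in both. Yap1 itself and Wwtr1, which encodes TAZ, did not pass the test.

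Of 19 tested receptor and ligand genes of FGF and PDGF signalling 6 were called higher and 4 lower, shares close to those of all genes. Among receptors, Fgfr3 had 4.61, 4.70 and 4.46 in XEN, against -3.39, -4.04 and -3.57 in ESC (8.25 ± 0.49), and Fgfr4 (4.63 ± 0.40), the co-receptor Klb (5.20 ± 0.39) and the FGF receptor partner Flrt3 (6.38 ± 0.29) were higher. Fgfr1 was lower, at -0.58, 0.71 and 0.06 in XEN, against 3.69, 3.89 and 3.97 in ESC (-3.79 ± 0.52). Fgfr2, the receptor best known from primitive endoderm precursors, was higher by 0.72 ± 0.20, and not called with slide as a fixed block (0.64). Among ligands, Pdgfa, the ligand of the raised receptor Pdgfra, differed by -2.96 ± 0.24 and Pdgfc by -6.71 ± 0.55, both lower in XEN as Fgf4 was. Kitl, the ligand of KIT, was higher by 3.33 ± 0.43.

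Feedback and target genes of ERK were called higher in 9 of 22 and lower in 4, with a median of 0.33; the ESC medium contains a MEK inhibitor. Phlda1 (5.43 ± 0.45), the phosphatase gene Dusp4 (4.45 ± 0.48), Myc (4.21 ± 0.71), Ier3 (4.10 ± 0.68), Jun (3.73 ± 0.54) and Egr1 (3.65 ± 0.74) led the genes called higher, Egr1 not called with normexp background correction and quantile normalisation (0.93), and Dusp6, an ERK phosphatase, had 2.14, 2.98 and 2.61 in XEN, against 0.33, 0.49 and -0.29 in ESC. The ETS factors Etv1 (-5.10 ± 0.60) and Etv5 (-3.70 ± 0.48), Ccnd1, cyclin D1 (-4.67 ± 0.71), and Il17rd (-1.95 ± 0.37) were called lower. Etv4 and the Sprouty genes Spry1, Spry2 and Spry4 did not pass the test. Ccnd2, cyclin D2, which is on no list, showed the opposite of Ccnd1: it had 5.14, 5.19 and 5.19 in XEN and was not well above background in ESC, at least 909-fold higher.

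Components of LIF signalling were called higher in 7 of 14 and lower in 4. Lifr, the LIF receptor, had 5.01, 3.97 and 4.63 in XEN, against 2.34, 2.19 and 1.91 in ESC (2.39 ± 0.39), and Cish, a STAT target, was higher by 3.19 ± 0.33. Il6st, the shared subunit gp130, differed by -1.04 ± 0.24 and Il6ra, the interleukin 6 receptor, by -7.03 ± 0.49. The Il6st call was lost under median centring (-0.40). Jak2 and Ptpn11 were called higher by less than 2 on the log2 scale, and Pim1 and Bcl3 lower by more than 2.

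Nodal pathway genes were called higher in 7 of 18 and lower in 8. Nodal itself had -1.71, -1.25 and -1.82 in XEN, against 3.82, 3.75 and 3.67 in ESC (-5.34 ± 0.49), and its inhibitor Lefty2 (-4.95 ± 0.74) and its cofactor Foxh1 (-3.47 ± 0.38) were lower too, with Inhbb, an Activin subunit, at least 10.7-fold lower, a call lost with normexp background correction and quantile normalisation. The co-receptor Cfc1 was higher by 5.44 ± 0.54 and Fstl3 by 4.24 ± 0.57. In the BMP list 9 of 19 were called higher and 5 lower. Bmp2, a ligand, had 2.21, 1.46 and 2.38 in XEN, against -3.97, -4.12 and -4.01 in ESC (6.05 ± 0.54), and the target genes Id1, Id2 and Id3 were higher by 3.02 ± 0.60, 5.23 ± 0.47 and 2.91 ± 0.43. The ligands Bmp4 (-5.52 ± 0.67) and Bmp7 (at least 69.6-fold) and the factors Tfap2c (-8.93 ± 0.60), Id4 and Smad9 were lower.

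Wnt pathway genes were called lower in 9 of 22 and higher in 4, with a median of -0.52, and under median centring 8 were called higher and 8 lower. The genes called lower included transcriptional targets of beta-catenin; the ESC medium contains a GSK3 inhibitor. Axin2 was not well above background in XEN, against -1.33, -1.80 and -3.20 in ESC, at least 5.87-fold lower, T (brachyury) was not well above background in XEN either, Sp5 differed by -7.42 ± 1.00, Cdx1 by -7.05 ± 0.56 and Lef1 by -3.15 ± 0.89. With normexp background correction and quantile normalisation the calls of Axin2, T and Lef1 were lost. Sfrp1, a secreted inhibitor, was at least 66.2-fold lower. The ligand Wnt11 had 2.61, 3.70 and 4.47 in XEN, against -1.41, -1.57 and -2.06 in ESC (5.28 ± 0.41), and Fzd7, a Wnt receptor, was higher by 2.96 ± 0.24. Lgr5, a target and co-receptor, was called higher but was well above background on 1 XEN array and no ESC array. Retinoid genes were called lower in 7 of 15 and higher in 3, with a median of -1.02. Rarb, a retinoic acid receptor that responds to its ligand, was higher by 5.19 ± 0.49, Rdh10, which oxidises retinol, by 3.69 ± 0.35 and the receptor Rara by 0.62 ± 0.21. The Rara call was lost without ESC array 3 (0.48), under quantile normalisation (0.24) and in the authors' deposited log2 values (0.25). It was also lost within the first scan day (0.46). The binding protein Crabp1 (at least 14.2-fold), the synthetic enzyme Aldh1a3 (at least 7.21-fold) and the partner receptor Rxra (-3.42 ± 0.26) were lower. The Crabp1 call was lost with normexp background correction and quantile normalisation.

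Of 24 genes of the unfolded protein and stress response, which include folding factors of the endoplasmic reticulum, 19 were called higher and 1 lower, with a median of 1.76. Hspa5, the chaperone BiP, had 8.30, 7.40 and 7.80 in XEN, against 5.09, 5.13 and 5.31 in ESC (2.66 ± 0.29). Xbp1, the transcription factor of secretory cells, had 6.45, 5.85 and 6.54 in XEN, against 3.99, 3.99 and 3.63 in ESC (2.41 ± 0.24). Atf3 (5.47 ± 0.64), Sel1l (2.83 ± 0.25), Ero1a (2.69 ± 0.34), Manf (2.67 ± 0.27) and Dnajb11 (2.58 ± 0.21) were also among the most raised. Asns, asparagine synthetase, was the member called lower (-1.01 ± 0.21), not called under median centring (-0.37). Atf4, Ddit3, Trib3 and Chac1 did not pass the test, with XEN array 1 low for Trib3 (1.56, 4.81 and 4.05) and Chac1 (-0.98, 4.08 and 3.67). Without XEN array 2 both were called lower (-2.08 and -2.45), as Trib3 was under quantile normalisation (-1.79).

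**Figure D3:**
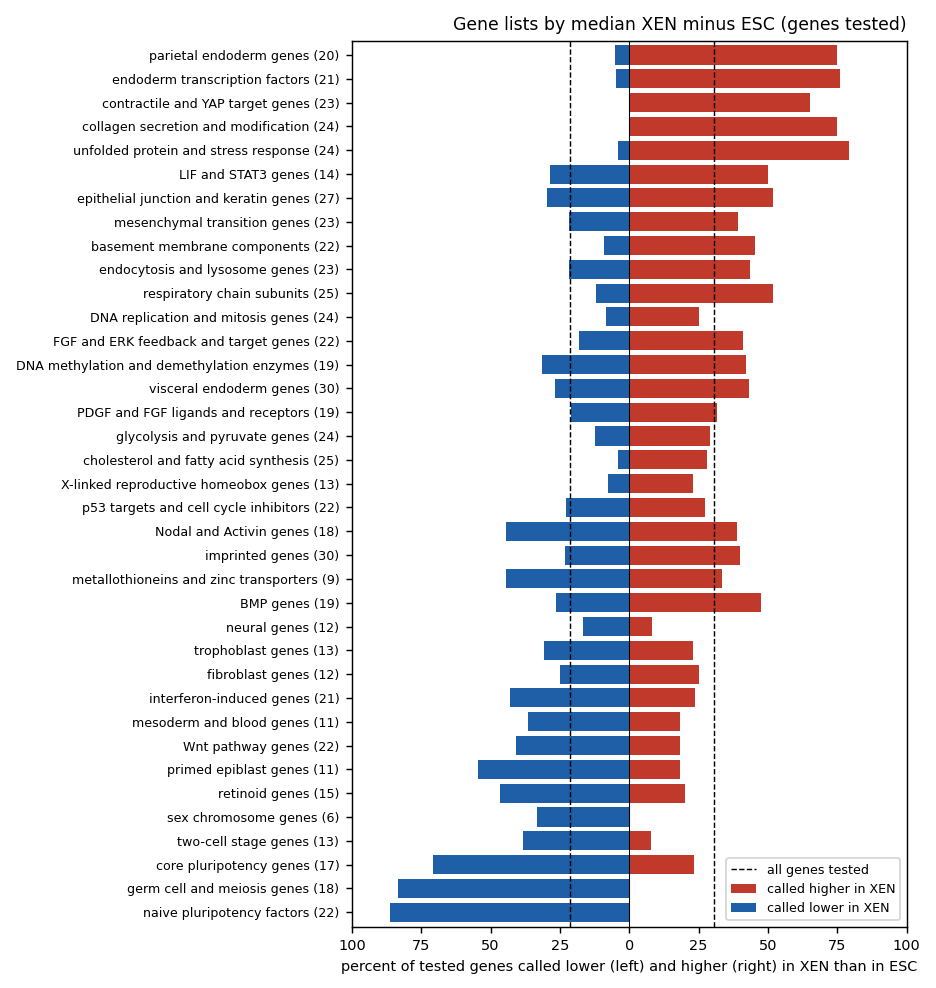
Percent of the tested genes of each list called lower (left, blue) and higher (right, red) in XEN than in ESC, with lists ordered by their median difference and the number of genes tested in brackets. The dashed lines mark the 30.7% higher and 21.4% lower among all genes tested.

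Few replication and mitosis genes were called between XEN and ESC. Of 24 tested, 6 were called higher and 2 lower, a split that depended on the scaling: 14 and 0 under median centring, 3 and 6 under quantile normalisation. Cdc6, a replication licensing factor, was higher by 2.12 ± 0.33, Cdk1 by 1.11 ± 0.29 and Ccna2, cyclin A2, by 1.07 ± 0.17, and E2f1 (-1.42 ± 0.23) and Ccnb2 (-1.16 ± 0.18) were lower. Neither of the last pair was called under median centring (-0.78 and -0.52). Among p53 targets and cell cycle inhibitors 6 of 22 were called higher and 5 lower, shares close to those of all genes. The split turned with the scaling, at 8 and 2 under median centring and 5 and 7 under quantile normalisation. Fas, a death receptor, was at least 5.56-fold higher, Btg2, an antiproliferative gene, higher by 2.67 ± 0.25 and Cdkn2b, the inhibitor p15, by 2.58 ± 0.41. Pmaip1, the BH3 protein NOXA, was at least 20.4-fold lower, Gdf15, a stress-induced ligand, differed by -5.81 ± 0.67, and Trp53inp1 by -1.23 ± 0.31. Under median centring Trp53inp1 lost its call (-0.59).

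Energy metabolism genes showed small differences. Of 25 respiratory chain subunits 13 were called higher and 3 lower, with a median of 0.41, and under quantile normalisation 8 were called higher and 5 lower. Cycs, cytochrome c, was higher by 1.59 ± 0.34, Atp5o by 1.14 ± 0.19 and Uqcrfs1 by 1.07 ± 0.21, while the complex IV subunits Cox6b2 (-1.95 ± 0.35), Cox7a1 (-1.44 ± 0.32) and Cox5a (-0.62 ± 0.19) were lower. Median centring ended the Cox7a1 call (-0.80). The Cox5a call was lost without XEN array 3 (-0.40), and its sign turned under median centring (0.02). Of 24 glycolysis genes 7 were called higher, a share close to that of all genes, and 3 lower. Under quantile normalisation 5 were called higher and 6 lower. Pfkp, the platelet form of phosphofructokinase, was the exception in size: it had -4.18, -2.96 and -4.19 in XEN, against 4.47, 3.98 and 3.88 in ESC (-7.88 ± 0.53). Ldhb, a lactate dehydrogenase, differed by -2.30 ± 0.58 and Hk1, a hexokinase, by -1.20 ± 0.29, though the authors' deposited log2 values gave 0.06 for Hk1, and median centring -0.56 with no call. The enolases Eno2 (1.78 ± 0.45, with arrays that overlapped, and 1.60 with slide as a fixed block, where the call was lost) and Eno3 (1.46 ± 0.21) and Slc2a1, the glucose transporter GLUT1 (1.28 ± 0.42), were higher. The Slc2a1 call was lost without ESC array 1 (1.14), ESC array 2 (1.15) or XEN array 3 (0.97). It was also lost under quantile normalisation (0.84), with normexp added (0.72) and in the authors' deposited log2 values (0.70).

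Germ cell and meiosis genes, several of which ESC transcribe, were called lower in 15 of 18 and higher in none, with a median of -4.92. Beside Rpl10l, Tdrd12 was at least 80.3-fold lower, Sycp3, a protein of the synaptonemal complex, at least 33.01-fold, Dazl, an RNA-binding protein of germ cells, at least 19.3-fold and Stag3, a meiotic cohesin, by -6.17 ± 0.41. Genes of the 2-cell stage embryo were called lower in 5 of 13, led by Pramel6 (at least 21.2-fold), Zscan4f (at least 8.54-fold) and Pramel7 (at least 6.68-fold). With normexp background correction and quantile normalisation Zscan4f and Pramel7 were not called. The ESC arrays differed widely in Zscan4f, at -3.91, -0.78 and -0.03. Sp110 was called higher in this list (0.79 ± 0.22), and another probe of Sp110 was called in the opposite direction, with a mean over probes of -0.75.

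Enzymes that set and remove DNA methylation changed in both directions, with 8 of 19 called higher and 6 lower. The de novo methyltransferase genes Dnmt3a (2.12 ± 0.40) and Dnmt3b (1.66 ± 0.38) and Gadd45g (4.80 ± 0.40) and Mbd2 (1.94 ± 0.22) were higher. Apobec1, a cytidine deaminase (-6.21 ± 0.55), Tet2 (-3.75 ± 0.32), Tet1 (-2.80 ± 0.39), both of which oxidise methylcytosine, and Dnmt3l, the cofactor of the de novo enzymes (-2.85 ± 0.60), were lower. Uhrf1, which brings the maintenance methyltransferase to replicated DNA, differed by -1.21 ± 0.28, not called under median centring (-0.57), and Dnmt1 itself did not pass the test.

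Markers of other cell types gave no uniform picture. Fibroblast genes were called higher in 3 of 12 and lower in 3, shares close to those of all genes. The summed level of that list, on a linear scale relative to the 75th percentile, was 53.1 to 96.2 on the XEN arrays, against 2.21 to 2.91 on the ESC arrays. Most of that sum on each XEN array came from a single gene, Pdpn, podoplanin. Its log2 levels were 6.43, 5.69 and 6.55 in XEN, against -0.88, -0.59 and -0.88 in ESC. Fbn1, fibrillin (at least 16.9-fold), and Col6a1 (5.04 ± 0.76) were the others called higher. The defining collagen genes Col1a1 and Col3a1 and the fibroblast genes Postn and Prrx1 were not well above background on any XEN array. Col1a1 (at least 5.7-fold), Col5a1 (at least 18.4-fold) and Thy1 (-3.01 ± 0.79) were the members called lower, Thy1 not with normexp background correction and quantile normalisation (-0.49). Trophoblast genes were called higher in 3 of 13 and lower in 4, with summed levels of 13.5 to 26.5 in XEN, against 55.2 to 89.3 in ESC. Plac1, a placental gene (at least 43.8-fold), Elf5 (2.30 ± 0.78) and Sct (1.93 ± 0.47) were higher, and Tfap2a (-5.21 ± 0.52), Cdh3 (-3.09 ± 0.66) and Gcm1 (-2.43 ± 0.57) were the lowest of those called lower. The Cdh3 and Elf5 calls were lost with normexp background correction and quantile normalisation (-0.47 and 0.49), and that of Elf5 also without XEN array 3 (2.02), ESC array 2 (1.84) or ESC array 3 (1.98). Cdx2, the defining factor of trophoblast stem cells, had -3.38, -3.63 and -2.57 in XEN, against -3.79, -3.36 and -3.15 in ESC, and Hand1 was not well above background in either group. Neural genes were called higher in 1 of 12 (Sox3, at least 22.7-fold) and lower in 2, with Sox1 the lower of them (-1.64 ± 0.43, not called under median centring), with summed levels of 6.45 to 10.5 in XEN, against 6.13 to 8.76 in ESC. Mesoderm and blood genes were called higher in 2 of 11 (Tek, 3.74 ± 0.55, and Myh6, 1.44 ± 0.60) and lower in 4, led by Etv2 (-2.99 ± 0.88, not called within the first scan day), with summed levels of 11.2 to 17.1 in XEN, against 8.96 to 12.6 in ESC. Primed epiblast genes were called higher in 2 of 11 (Krt42, 4.25 ± 0.86, and Sox4, 2.89 ± 0.41) and lower in 6, led by Foxd3 (at least 43.7-fold), with summed levels of 13.2 to 22.6 in XEN, against 7.33 to 10.2 in ESC. The Myh6 call was lost in 5 of the 6 fits that left out an array (up to 1.62 there). Fewer cells of a type and less RNA per cell cannot be told apart in these bulk samples. The part of other cells in the differences was not tested.

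XEN was also set against nEnd, the passaged endoderm of the HRHnG line. Both are endoderm, and they differ in cell line and culture history. Cell line, culture history and any difference in medium cannot be told apart in this comparison. Of the 16332 genes, 3999 were higher in XEN than in nEnd (24.5%) and 2711 lower (16.6%), with a median of 0.03. Of the genes called, 59.6% were higher in XEN, and 76.0% with each array centred on its median, which moved the median of all genes to 0.38. Under quantile normalisation 50.8% were higher. The counts of gene lists against nEnd are given with the scaling used here only. This comparison shares its XEN arrays with the one against ESC, so each comparison's own values are given side by side. Several core endoderm regulators had levels near those of nEnd. Sox17 averaged 5.97 in XEN and 5.34 in nEnd, Gata6 4.99 in XEN and 4.62 in nEnd, and Foxa2 5.20 in XEN and 5.28 in nEnd, and none of these passed the test. Of the 21 endoderm factors 4 were higher in XEN than in nEnd, Sox7 (2.82 ± 0.65), Gata3 (3.75 ± 0.82), Gata4 (1.74 ± 0.35) and Nr2f2 (1.30 ± 0.43), and none lower. The Nr2f2 call was lost without XEN array 1 (1.04) or XEN array 2 (1.24).

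Some pluripotency transcripts that were present in nEnd were lower in XEN. Pou5f1 averaged -4.68 in XEN, 2.79 in nEnd and 4.66 in Diff, and was lower in XEN than in nEnd (-7.47 ± 0.38). Dppa5a averaged -3.15 in XEN, and 7.59 in nEnd, close to the 8.44 of ESC (-10.74 ± 0.35 in XEN minus nEnd). Nanog did not show this: its nEnd mean was -4.50, with 2 of 6 arrays well above background. Of the 22 naive factors 8 were lower in XEN than in nEnd and 1 higher (Zfp281), with a median of -0.84. Among the wider list Lin28b averaged 1.91 in XEN and -4.46 in nEnd (6.37 ± 0.64).

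Genes of the epithelial surface and of cell shape also differed between XEN and nEnd. Visceral endoderm genes were lower in XEN than in nEnd in 15 of 30 and higher in none, with a median of -1.41. Apoa1 was not well above background in XEN and averaged 0.36 in nEnd, at least 32.6-fold lower in XEN, Vil1 differed by -5.94 ± 0.35, Fgb by -5.42 ± 0.78 and Amn by -5.16 ± 0.35. Parietal endoderm genes moved both ways against nEnd, with 6 of 20 higher in XEN and 6 lower and a median of 0.19. Of 22 basement membrane genes 3 were higher in XEN than in nEnd and 5 lower, with a median of 0.01. Epithelial genes were lower in 15 of 27 and higher in 2, among them Cldn7, at -2.04 in XEN and 6.22 in nEnd (-8.26 ± 0.52), St14 (-5.87 ± 0.39) and Cdh1 (-5.50 ± 0.49). Mesenchymal transition genes were higher in 11 of 23 and lower in 2, with Zeb1 at 1.53 in XEN and -5.18 in nEnd (6.71 ± 0.52) and Zeb2 not well above background on any nEnd array (at least 17.8-fold higher in XEN). Contractile and YAP target genes were higher in 15 of 23 and lower in 1. Vim averaged 7.17 in XEN and 0.06 in nEnd (7.11 ± 0.51), below the 3.84 of ESC. The keratins did not follow this pattern: Krt18 averaged 8.66 in XEN and 7.96 in nEnd, and Krt8 and Krt19 did not pass the test either.

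The XEN means of Fkbp10 and Hexa also lay outside the range of the ESC, 2iL, Diff and nEnd means, which was not tested as such. The remaining groups of the study were not compared here. Fkbp10 averaged 5.89 in XEN, 0.09 in ESC, 0.77 in 2iL, 0.83 in Diff and 0.82 in nEnd. Hexa was the reverse, not well above background in XEN and at 4.84 in ESC, 3.98 in 2iL, 4.88 in Diff and 3.68 in nEnd. Replication and mitosis genes were higher in XEN than in nEnd in 21 of 24 and lower in none, with a median of 1.18, and Rrm2, a subunit of ribonucleotide reductase, averaged 6.72 in XEN and 4.34 in nEnd (2.38 ± 0.34). The split of this list against ESC depended on the scaling, as given above.

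**Figure D4:**
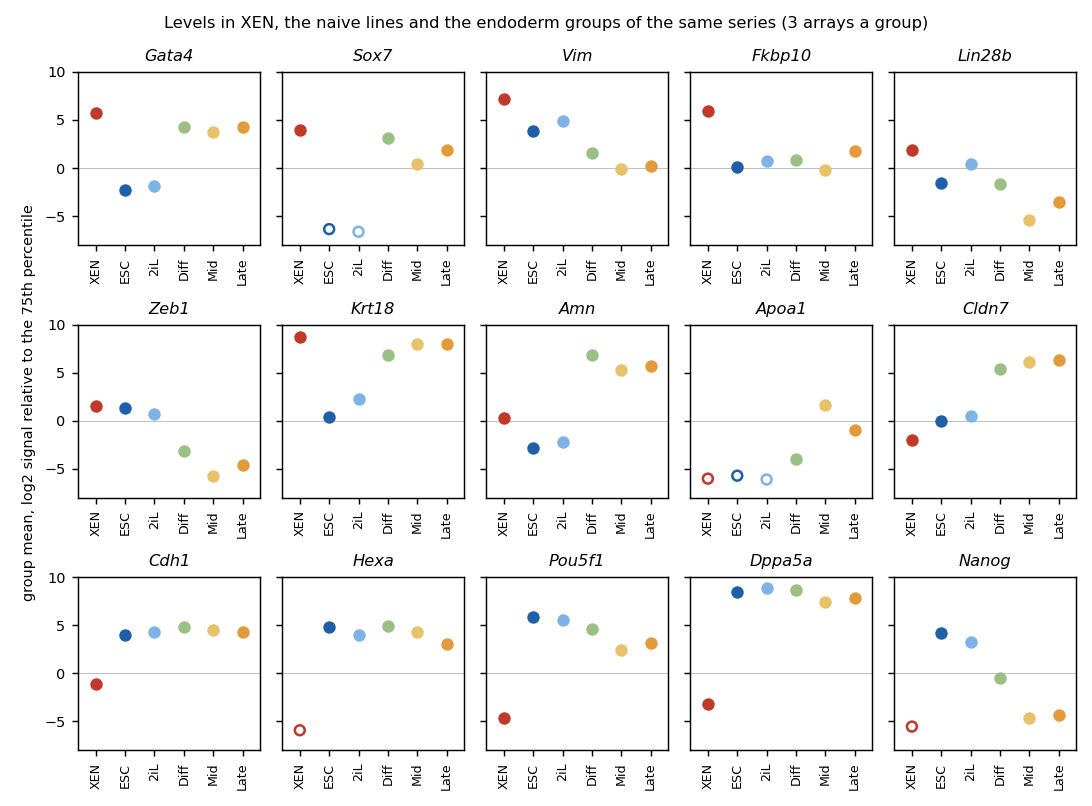
Mean level (log2 signal relative to the 75th percentile) of 15 genes in XEN, ESC, 2iL, Diff, Mid and Late, 3 arrays each, with open symbols where no array of the group was well above background. Hexa is open only for XEN, and Pou5f1 and Dppa5a fall in XEN below the levels of all 5 other groups shown.

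The differences were spread unevenly over chromosomes, which were taken from the RefSeq gene table. The median XEN minus ESC difference was 0.52 over 554 genes of chromosome 14, 0.50 over 556 of chromosome 19, 0.49 over 500 of chromosome 16 and 0.43 over 561 of chromosome 12, followed by 0.35 over 900 of chromosome 1. At the other end of the autosomes it was -0.26 over 1381 genes of chromosome 7 and -0.21 over 853 of chromosome 17, and over the 13 genes of chromosome Y it was -0.88. Each of the 3 XEN arrays showed these shifts, from 0.48 to 0.61 for chromosome 14, 0.46 to 0.56 for chromosome 19, 0.41 to 0.50 for chromosome 16 and 0.37 to 0.52 for chromosome 12. On chromosome 14, 261 genes were called higher and 71 lower. Against nEnd the medians of chromosomes 14, 16 and 12 were 0.54, 0.46 and 0.45, and that of chromosome 19 was -0.03. For chromosome 19 the nEnd cultures themselves stood 0.31 above ESC of the same line. Over the genes well above background in both groups the medians were 0.67, 0.61, 0.61 and 0.59 for chromosomes 14, 19, 16 and 12. The copy number of these chromosomes was not measured. The zero of all these medians depends on the scaling, since median centring moved the median XEN minus ESC difference of all genes to 0.68. The sign of a chromosome's median is therefore relative to the scaling used.

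**Figure D5:**
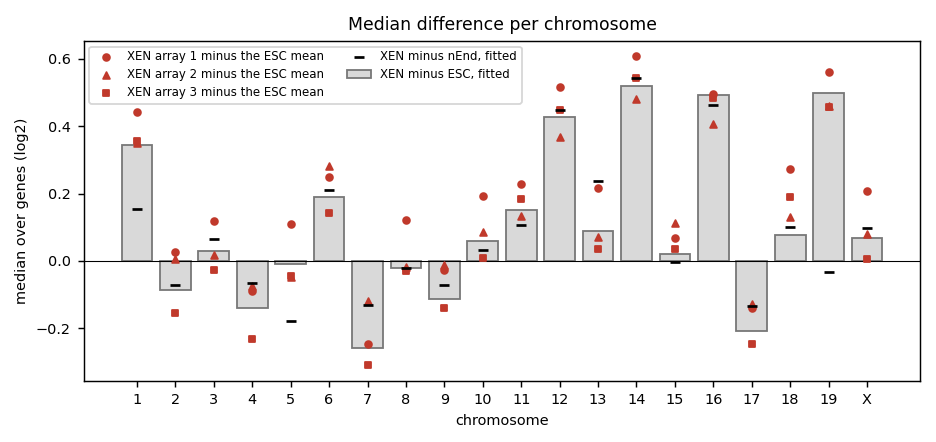
Median difference over the genes of each chromosome (log2), as bars for XEN minus ESC, red symbols for each XEN array minus the ESC mean, and black dashes for XEN minus nEnd. Chromosomes 12, 14 and 16 stand near 0.5 in both comparisons, and chromosome 19 near 0.5 against ESC and near 0 against nEnd.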

How the data were processed

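Total RNA of cells lysed on plates was measured on Agilent arrays with Cy3 as the only dye. The deposited scanner files hold spot intensity values background-corrected by Agilent Feature Extraction, version 11.0.1.1 for the XEN and ESC arrays per the file headers and version 9.1 per the submitters' processing notes, on a grid of build mm9. The series matrix holds the authors' deposited log2 values, with array medians of 5.94 to 5.95. Over probes, each column and its scanner signal on the log2 scale had a correlation of 0.909 to 0.937, and their centring per gene and their exact normalisation are not given in the sources used here.

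From the scanner files, log2 of the processed signal was set relative to each array's 75th percentile. Control spots and outlier flags were left out. A probe was kept if every array of 1 or more of the 9 groups marked it as well above background, and a gene was represented by its probe with the highest mean. Of 55681 probes, 27636 had 1 symbol. Group means over all 29 arrays were fitted with limma 3.58.1 in R 4.3.3, and p-values were adjusted over 16332 genes. No XEN or ESC spot used was saturated, and the number of arrays limits the precision. Same-numbered XEN and ESC arrays did not deviate together (correlations of -0.0048, -0.018 and -0.10), so replicate numbers were not used as pairs. Alternatives covered scaling, background correction (normexp on median signals, since mean signals were not used here), filter, probe choice, slide, scan day, thresholds and left-out arrays. The fit was tested on simulated data. Chromosomes and promoters came from RefSeq tables of GRCm38.p6, and no coordinate was carried from mm9. All lists and named genes were chosen with earlier results of these data known. The rule named, per list, the 3 to 6 called genes with the largest differences each way, the 10 over all genes, and a fixed set of lineage genes. Genes named beyond it were singled out after their values were seen. Some genes that this rule names are not reported here.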

Additional observations from a re-analysis of the deposited data

How the results depend on the processing

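The totals of called genes, both directions together, kept within 1.5 times of the reported ones under every alternative run, with 1 exception: of the 6710 genes that differed between XEN and nEnd, 3886 differed by at least 2-fold. Under median centring the genes called lower numbered 1942 for XEN against ESC, where 3502 are reported, and 1544 for XEN against nEnd, where 2711 are reported. Leaving out 1 array at a time gave 7665 to 8556 genes for XEN against ESC and 5654 to 6651 for XEN against nEnd, where leaving out each Mid and Late array was chosen after seeing the data. Same-numbered samples share only a number, and the replicate block gave 6639 and 5475 genes. Signs turned for 6 of the genes given with values. Cox5a was 0.017 under median centring, Hk1 was 0.060 in the authors' deposited log2 values, and Sp110 was -0.75 as a mean over its probes. Zeb1, which was not called, was -0.076 under quantile normalisation, -0.050 with normexp added and -0.12 in the deposited values. Without 1 array, Cdx2 ranged from -0.070 to 0.46 and Chac1 from -2.45 to 0.085, neither called in the reported fit. Of 288 genes named for XEN against ESC, 26 lost their call under normexp with quantile normalisation, 17 of the 236 with a value there in the deposited values, 12 under median centring beside Cox5a, 9 with slide as a fixed block, 9 within the first scan day and 7 with the replicate block, each in the reported direction. Cox5a, Eno2, Rara, Scarb1 and Sp110 lost theirs with the XEN and ESC arrays fitted alone. The cause was not tested. Genes near background limit these data, since their folds are bounds and the normexp offset compresses them.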

Other observations

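Imprinted genes were called higher in XEN than in ESC in 12 of 30 and lower in 7, with a median of 0.04. The share called lower and the median were close to those of all genes. Sgce (5.88 ± 0.59), Peg3, a zinc-finger gene (5.69 ± 0.40), and Kcnq1ot1, a long non-coding RNA (4.85 ± 1.07), were the most raised. Peg3 averaged 2.66 in XEN, 1.35 in nEnd and -3.03 in ESC. Meg3 and Mirg, which are transcribed from the same imprinted region, were lower together, Meg3 at -6.31, -4.84 and -5.30 in XEN, against 6.51, 5.53 and 4.17 in ESC, and Mirg by -7.23 ± 0.51. On XEN arrays 1 and 3 Meg3 lay below the lowest signal well above background. Slc38a4, an amino acid transporter known from placenta, was at least 199-fold lower, and Cdkn1c, a cell cycle inhibitor, differed by -4.43 ± 0.78. Igf2 did not pass the test, while against nEnd it was lower in XEN (-3.41 ± 0.55).

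Among X-linked reproductive homeobox genes and their neighbours on the list 3 of 13 were called higher and 1 lower. Rhox6 had 5.56, 5.39 and 5.19 in XEN, against -2.73, -2.50 and -0.72 in ESC (7.36 ± 0.72), and Rhox9 and Rhox5 were higher by 5.23 ± 0.67 and 1.86 ± 0.50. Rhox13 was at least 15.4-fold lower.

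Interferon-induced genes were called lower in 9 of 21 and higher in 5. H2-K1, a class I heavy chain, had 5.44, 6.56 and 6.65 in XEN, against 0.51, 0.90 and 0.71 in ESC (5.51 ± 0.34), H2-D1 was higher by 4.74 ± 0.27 and B2m, the light chain, by 3.51 ± 0.30. Oasl2 (4.76 ± 0.66) and Ifit2 were the others called higher, Ifit2 not in 5 of the 6 fits that left out an array, and the antigen processing genes Tap1 and Psmb8 did not pass the test. Oas1a, Oasl1 (at least 21.6-fold) and Ifitm1 (-4.46 ± 0.76) led the genes called lower. Against nEnd 13 of the 21 were lower in XEN and 2 higher, with B2m averaging 5.15 in XEN and 5.92 in nEnd (-0.77 ± 0.26). The B2m call against nEnd was lost without XEN array 1 (-0.58) and under median centring (-0.42).

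Of 9 metallothioneins and zinc transporters 3 were called higher and 4 lower. Mt2 had 3.32, 4.07 and 2.86 in XEN, against 9.05, 9.02 and 8.79 in ESC (-5.54 ± 0.50), and Mt1 differed by -2.55 ± 0.53. Slc39a14, a zinc importer, was higher by 5.26 ± 0.46 and Slc30a1, an exporter, by 1.97 ± 0.58 (not called with slide as a fixed block, 1.32). Of 25 genes of cholesterol and fatty acid synthesis 7 were called higher, a share close to that of all genes, and 1 lower. Under quantile normalisation 4 were called each way.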
